A study of Mus musculus with 6 samples.

Results

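The 4 Spink3-deficient arrays, 2 from Spink3-/- pancreas and 2 from Spink3-/-XKI/+ pancreas, were compared as 1 group with the 2 Spink3+/+ arrays. These are all 6 arrays of the series, and an array entered the deficient group by its labelled genotype, not by a measured value. Gene expression was measured on 1-colour Agilent mouse arrays in total RNA of whole pancreas, taken from C57BL/6N mice at postnatal day 0.5 and frozen at once. According to the series' design text, every acinar cell of Spink3-/- pancreas undergoes a death with autophagy that is not apoptosis, whereas a part of the acinar cells in Spink3-/-XKI/+ pancreas is normal. Both deficient genotypes are homozygous for the Spink3 deletion, Spink3-/-XKI/+ carries 1 XKI allele in addition, and Spink3+/+ carries neither. The meaning of XKI and the cells in which it acts are not explained in the labels. The labels also do not tie the 2 arrays of a genotype to separate animals, so the spread behind each p-value is that of these arrays and may be partly technical. The comparison asks which transcripts stand apart from wild type in both deficient genotypes, and above all for which genes the 4 deficient arrays lie on 1 side of both Spink3+/+ arrays. With 15 ways to divide 6 arrays into 4 and 2, an exact permutation test of 1 gene cannot give a p below 0.0667.

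Spink3 is a small secreted serine protease inhibitor that acinar cells package with trypsinogen, and it blocks trypsin that becomes active too early. Injured exocrine pancreas is known to secrete REG lectins, a family of small C-type lectins, and to take up macrophages and neutrophils. Immediate early genes are those whose transcription starts shortly after a stimulus, and products such as Jun bind AP-1 or related elements in other genes.

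A level here is the log2 signal of the gene's probe minus the array's 75th percentile, so that 0 is that percentile and 1 unit is a doubling of signal. On each array 42.4% to 50.8% of spots were well above background and none was saturated. The correlation between arrays over probes ran from 0.97 to 0.98. On the first principal component, which held 31.7% of the variance over genes, the Spink3+/+ arrays lay at -27.9 and -20.4, and Spink3-/-XKI/+ replicate 2 stood apart at 37.7. All 7 acinar markers were well above background on all 6 arrays, whereas 2 of 3 intestinal and 2 of 3 adipocyte markers were so on 0 arrays. Xist was well above background on 6 arrays, and each of the 6 probes for Y-linked genes on 0 arrays. All arrays shared 1 slide, with both Spink3+/+ arrays and Spink3-/- replicate 1 in 1 slide row and the other 3 deficient arrays in the other. Values within the first row, which set Spink3-/- replicate 1 against the Spink3+/+ mean, stand beside the main results.

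Loss of the Spink3 signal was by far the widest difference, and 2 other genes passed the test. Saa3, an acute-phase apolipoprotein made by macrophages and epithelia, rose, and Nsun7, a putative RNA methyltransferase, fell. Of 13842 tested genes, 1 was higher (0.00722%) and 2 were lower (0.0144%) in the deficient arrays by limma with a Benjamini-Hochberg adjusted p under 0.05. At an unadjusted p under 0.05, 421 genes (3.04%) were higher and 310 (2.24%) lower, and 53.3% of all tested genes had a difference above 0.

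The groups did not overlap for many more genes than passed the test. All 4 deficient arrays lay above both Spink3+/+ arrays for 1126 genes (8.13% of those tested) and below both for 856 (6.18%). Most of these genes were separated by little: the median gap between the nearest arrays of the groups was 0.09 log2 units above and 0.07 below. If the arrays were exchangeable, 1 of the 15 splits would place all 4 deficient arrays above both others, a share of 0.0667. The same share holds below, so the observed 8.13% and 6.18% are near it. A gap of 1 or more was found for 8 genes above (0.0578%) and 12 below (0.0867%). The split between directions depended on the scaling, since with spike-in probes as the reference 2012 genes lay above and 209 below. Of the 1126 genes above, 905 were well above background on all 6 arrays, and 134 were well above background on neither Spink3+/+ array. For genes of the latter kind the filter was passed only through the deficient arrays, so that a difference in their signal had to be there. Likewise, 13 of the 856 genes below were well above background on no deficient array and passed only through the Spink3+/+ arrays.

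Spink3 stood at 9.84 and 10.26 on the Spink3+/+ arrays, at 3.25 and 2.95 in Spink3-/- and at 2.64 and 2.34 in Spink3-/-XKI/+. The 2 groups were 6.58 log2 units apart at their nearest arrays. The log2 difference of Spink3 was -7.26 (SE 0.27, adjusted p = 0.000462 by limma), a 153-fold lower signal, and -6.79 within the slide row. All 4 deficient arrays were still well above background for this probe. The labels do not say where the probe lies relative to the deletion, so what transcript the remaining signal stands for cannot be read from it. The difference between the deficient genotypes, Spink3-/-XKI/+ minus Spink3-/-, was -0.61 (limma adjusted p = 0.63).

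Saa3 stood at -4.09 and -4.15 in Spink3+/+, where its probe was not well above background, at -1.17 and -1.52 in Spink3-/- and at -1.83 and -1.38 in Spink3-/-XKI/+. Every deficient array was well above background and more than 2 log2 units above the Spink3+/+ arrays. Its probe maps to chr7:53970389-53970448 of mouse build mm9. The log2 difference of Saa3 was 2.65 (SE 0.20, adjusted p = 0.0173 by limma), and 2.95 within the slide row. As the Spink3+/+ signal is a bound, Saa3 was at least 2.11-fold higher in the deficient arrays. Such a bound takes the dim group at its own signal or at the lowest signal of any probe well above background, array by array, whichever is higher. The call was lost with the slide row as a block (limma adjusted p = 0.056), with the replicate block (0.119), with an intensity trend in the fit (0.093) and with no filter on dim probes (0.168). With normexp background correction the difference was 0.51 and the limma adjusted p 0.92. The call was also lost in limma without Spink3+/+ replicate 1 (adjusted p = 0.109), without Spink3+/+ replicate 2 (0.078) and without Spink3-/-XKI/+ replicate 2 (0.113), while the difference stayed between 2.54 and 2.76 whichever array was left out.

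Nsun7 stood at 0.39 and 0.44 in Spink3+/+, at -2.37 and -1.93 in Spink3-/- and at -1.90 and -1.86 in Spink3-/-XKI/+. All 4 deficient arrays were below both Spink3+/+ arrays, Spink3-/- replicate 1 was the lowest, apart from the other 3, and 2 of the 4 were well above background. Its probe maps to chr5:66687139-66687198 of mm9. The log2 difference of Nsun7 was -2.43 (SE 0.18, adjusted p = 0.0173 by limma), and -2.79 within the slide row. A second kept probe of the gene, at chr5:66689181-66689240, gave a difference of -0.09 (SE 0.88) with overlapping groups, so the 2 probes disagree. With the mean of its probes in place of the brightest, the difference was -1.26 and the limma adjusted p 0.89. With the replicate block and with no filter on dim probes Nsun7 was not called either. The call was also lost in limma without Spink3+/+ replicate 1 (adjusted p = 0.109), Spink3+/+ replicate 2 (0.078), Spink3-/-XKI/+ replicate 1 (0.055) or Spink3-/-XKI/+ replicate 2 (0.113).

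Slc13a3, a sodium-coupled dicarboxylate transporter, came next by p-value and had the widest gap of the genes above, 2.34 log2 units. It stood at -2.70 and -1.80 in Spink3+/+, at 1.33 and 0.54 in Spink3-/- and at 0.70 and 0.77 in Spink3-/-XKI/+. All 4 deficient arrays were thus well clear of both wild-type arrays, of which 1 was well above background. The log2 difference of Slc13a3 was 3.08 (SE 0.31, adjusted p = 0.0864 by limma), and it passed the threshold with normexp correction (0.039), with an intensity trend in the fit (0.025) and without Spink3+/+ replicate 2 (0.046).

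**Figure D1:**
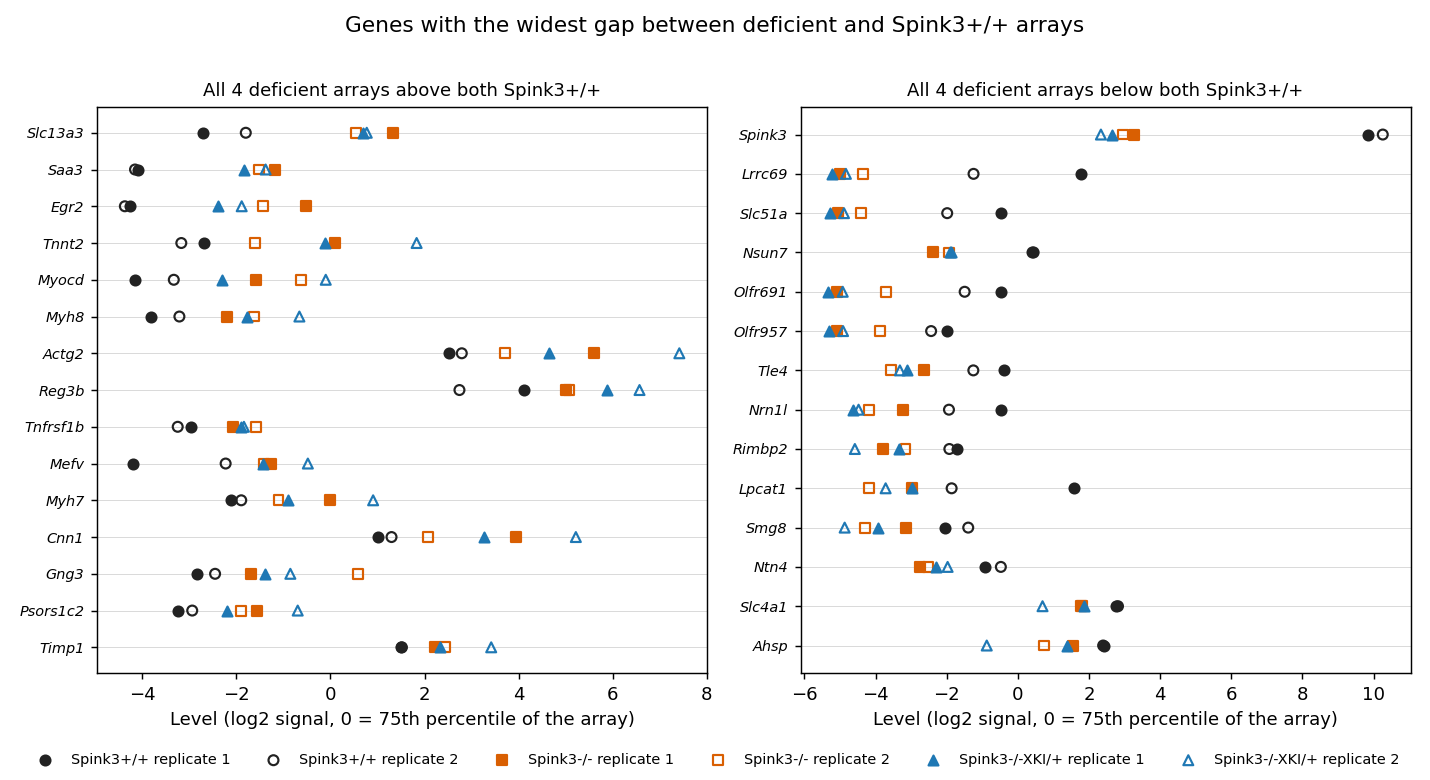
Level on each array (x axis, log2 signal relative to the array's 75th percentile) of the 15 named genes above and 14 of those below with a call or the widest gap; each point is 1 array. Spink3 is separated by 6.58 log2 units, while for genes such as Actg2 and Cnn1 the 4 deficient arrays spread widely and Spink3-/-XKI/+ replicate 2 is the highest.

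Among the genes above with the widest gaps were transcription regulators, inflammatory genes and genes of contractile cells. Egr2, an immediate early zinc finger factor, had a gap of 1.85, Tnfrsf1b, a receptor for tumour necrosis factor, 0.89, and Mefv, the inflammasome protein pyrin, 0.79. Tnfrsf1b stood at -2.95 and -3.24 in Spink3+/+, at -2.07 and -1.58 in Spink3-/- and at -1.90 and -1.84 in Spink3-/-XKI/+. Its deficient arrays were close together, and the log2 difference was 1.25 (SE 0.18, adjusted p = 0.383 by limma). The gene was at least 1.64-fold higher, as neither Spink3+/+ array was well above background. Timp1, a secreted inhibitor of matrix metalloproteases, stood at 1.5 and 1.52 in Spink3+/+, at 2.22 and 2.44 in Spink3-/- and at 2.33 and 3.42 in Spink3-/-XKI/+. Its wild-type arrays nearly coincided, and all 6 arrays were above background, but the difference of 1.09 (SE 0.34) had an adjusted p of 0.893 by limma. The 8 genes with a gap of 1 or more were Slc13a3, Saa3, Egr2, Tnnt2, Myocd, Myh8, Gpr84 and Nrcam, of which the last pair is named after its values were seen, because not all 4 deficient arrays were well above background.

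Below wild type, most genes with wide gaps were at background level in every deficient sample. Lrrc69, a leucine-rich repeat protein, stood at 1.77 and -1.25 in Spink3+/+ and between -5.24 and -4.35 on the deficient arrays. Slc51a, a subunit of a bile acid and steroid transporter, stood at -0.47 and -1.99 in Spink3+/+ and between -5.29 and -4.41 on the deficient arrays. Olfr691, an olfactory receptor gene, stood at -0.48 and -1.50 against -5.33 to -3.71. No deficient array was well above background for these 3 genes, and the wild-type arrays themselves differed by 1 log2 unit or more. The bounds were at least 8.71-fold lower for Lrrc69, at least 3.1-fold for Slc51a and at least 3.66-fold for Olfr691, with limma adjusted p-values of 0.383, 0.173 and 0.281. Tle4, a Groucho corepressor, Nrn1l, Rimbp2, Smg8, Lpcat1 and the olfactory receptor Olfr957 were likewise well above background on 0 of 4 deficient arrays. The probes that stood for the genes of this paragraph passed the filter only through the Spink3+/+ arrays, so that a lower deficient signal had to be there. For Lpcat1, an acyltransferase of lung surfactant lipid, a second probe gave a difference of 0.22, against -3.33 for the brighter one. That second probe was well above background on 2 deficient arrays and 0 Spink3+/+ arrays.

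Ntn4, a laminin-related netrin of basement membranes, was brighter on the deficient arrays than those genes, with 2 of 4 above background. It stood at -0.92 and -0.48 in Spink3+/+, at -2.76 and -2.53 in Spink3-/- and at -2.29 and -1.97 in Spink3-/-XKI/+. The groups were 1.05 apart, with a difference of -1.69 (SE 0.25, adjusted p = 0.383 by limma).

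**Figure D2:**
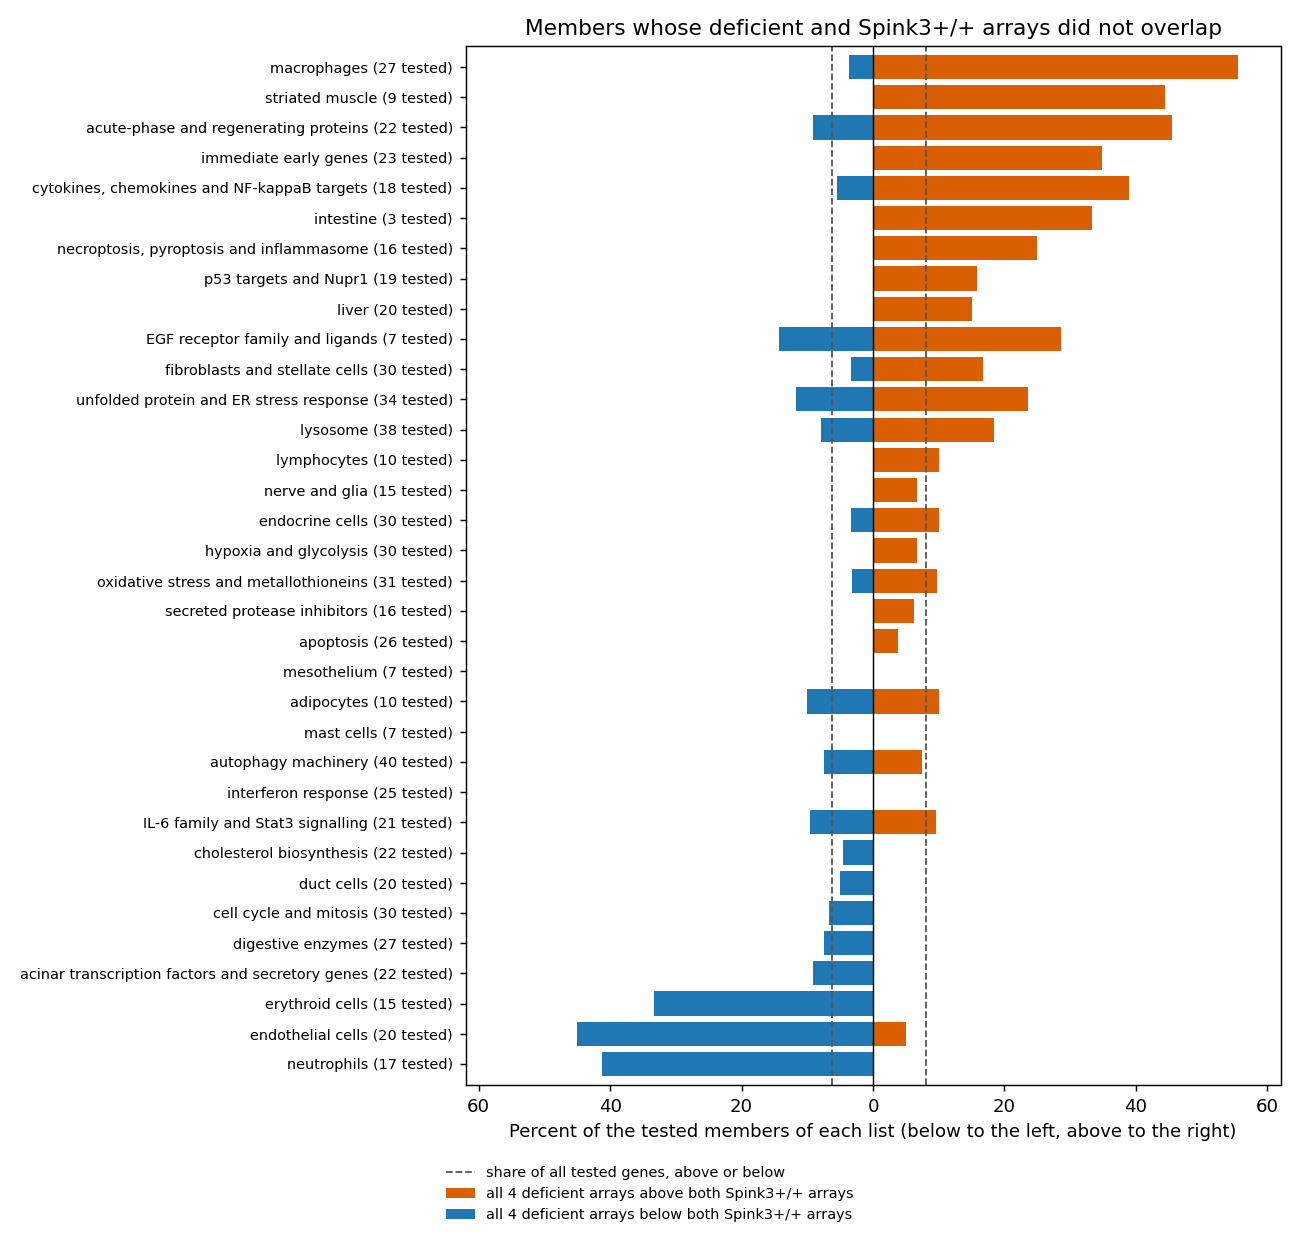
Share of each gene list's tested members (x axis, percent) whose 4 deficient arrays all lay above (right) or below (left) both Spink3+/+ arrays; dashed lines give the shares of all tested genes, 8.13% and 6.18%. Macrophage genes reach 55.6% above, and endothelial genes 45.0% and neutrophil genes 41.2% below.

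Of 30 digestive enzyme genes and their companions, 27 were tested, 0 lay above and 2 below (7.41%), against 8.13% and 6.18% of all tested genes. The median difference was -0.04, against 0.02 over all tested genes, and -0.28 within the slide row. It ran from -0.14 to 0.06 with 1 array left out, so its sign turned, and it was 0.04 with spike-in scaling. Their summed linear signal, in multiples of the 75th percentile, was 29848 to 34489 on the Spink3+/+ arrays and 26652 to 35435 on the deficient arrays, so the ranges overlapped. Cpa1, a carboxypeptidase, stood at 10.97 and 11.27 in Spink3+/+ and between 10.87 and 11.40 on the deficient arrays. Cela1, an elastase, stood at 7.60 and 7.69 in Spink3+/+, at 7.11 and 7.02 in Spink3-/- and at 7.54 and 6.62 in Spink3-/-XKI/+, a difference of -0.57 (SE 0.25). Its lowest array was Spink3-/-XKI/+ replicate 2. Pnliprp2, a pancreatic lipase-related protein, stood at 5.89 and 6.03 in Spink3+/+, at 5.33 and 5.77 in Spink3-/- and at 5.76 and 5.56 in Spink3-/-XKI/+, a difference of -0.35 (SE 0.17). Neither passed the test (adjusted p = 0.93 for both by limma). Among 22 tested acinar transcription factors and secretory genes, Spink3 and Vamp8, a granule fusion protein, lay below and 0 lay above. In bulk samples such as these, fewer cells of a type and less RNA per cell cannot be told apart, and cross-hybridisation between near-identical genes, such as those of trypsinogens or REG proteins, was not tested.

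Genes of the acute-phase and regenerating group formed 1 of the lists with the most members above wild type. Of 28 genes on the list 22 were tested, and 10 lay above and 2 below, or 45.5% and 9.1%, against 8.13% and 6.18% of all tested genes. The median difference was 0.50, and 0.60 within the slide row. It was 0.19 without Spink3+/+ replicate 1 and 0.79 without Spink3-/-XKI/+ replicate 1. Saa3 was the only member to pass the test, 1 of 22. Saa3 and Hpx, 2 of the 10 above, entered the test only through the deficient arrays, where they are bright. Among the 18 members well above background on all 6 arrays, 7 lay above and 2 below, with a median of 0.34, and 0 passed the test. Against Spink3+/+, the list's median was 0.76 in Spink3-/- and 0.44 in Spink3-/-XKI/+, comparisons that share their control arrays.

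All 6 REG genes tested lay above wild type in the 4 deficient arrays, while Reg4 did not pass the filter on dim probes. Their promoters are shown because the genes sit near each other on chromosome 6 and were separated together, with that of Saa3 for comparison. The stretches run from 120 bases to 1 base before the RefSeq start, in build GRCm38.p6, 5' to 3', and capitals mark a TATAAA box or an AP-1 element.
Reg1, chr6:78425863-78425982, plus strand: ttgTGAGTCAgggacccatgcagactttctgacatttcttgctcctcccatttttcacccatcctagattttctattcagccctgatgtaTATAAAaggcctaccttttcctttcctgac
Reg2, chr6:78405035-78405154, plus strand: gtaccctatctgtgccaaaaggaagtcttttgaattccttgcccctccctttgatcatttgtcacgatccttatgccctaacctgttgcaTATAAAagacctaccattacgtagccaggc
Reg3a, chr6:78380589-78380708, plus strand: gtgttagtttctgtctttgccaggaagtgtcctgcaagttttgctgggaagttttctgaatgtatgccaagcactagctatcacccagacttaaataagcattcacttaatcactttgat
Reg3b, chr6:78370765-78370884, plus strand: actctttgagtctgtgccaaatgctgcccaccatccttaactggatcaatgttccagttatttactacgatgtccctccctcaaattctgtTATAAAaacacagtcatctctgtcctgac
Reg3d, chr6:78378866-78378985, minus strand: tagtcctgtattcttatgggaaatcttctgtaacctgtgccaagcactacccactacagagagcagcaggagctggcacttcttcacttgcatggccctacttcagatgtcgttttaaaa
Reg3g, chr6:78468875-78468994, minus strand: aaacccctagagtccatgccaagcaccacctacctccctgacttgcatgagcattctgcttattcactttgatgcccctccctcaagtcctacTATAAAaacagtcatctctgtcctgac
Saa3, chr7:46715677-46715796, minus strand: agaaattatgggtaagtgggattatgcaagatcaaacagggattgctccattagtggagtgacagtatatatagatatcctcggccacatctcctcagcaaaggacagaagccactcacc
Reg1, Reg2, Reg3b and Reg3g hold TATAAA on the gene's strand, at -30 to -25 in Reg1 and Reg2, -29 to -24 in Reg3b and -27 to -22 in Reg3g. No TATAAA was found in the windows of Reg3a, Reg3d and Saa3. It occurs on either strand in 13.6% of the 32851 promoter windows of the RefSeq table, each of which spans 1 start. Reg3b and Reg3g share their last 20 bases, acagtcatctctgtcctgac, the longest run shared by any pair of the 6. The Stat motif TTCNNNGAA occurs in Reg3b at -129 to -121 and in Reg3d at -238 to -230, outside the stretches shown, and in 8.30% of all windows. Reg1 holds the AP-1 motif TGACTCA on the opposite strand at -117 to -111, a motif found in 5.20% of windows. A match is a description of the letters, not a bound site.

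Reg3b, the pancreatitis-associated protein, stood at 4.11 and 2.74 in Spink3+/+, at 5.00 and 5.07 in Spink3-/- and at 5.88 and 6.57 in Spink3-/-XKI/+. Its wild-type arrays differed by more than 1 log2 unit, and the nearest deficient array was 0.89 above them. The difference was 2.20 (SE 0.54, adjusted p = 0.782 by limma), 1.57 within the slide row and between 1.52 and 2.89 with 1 array left out. Reg1, the islet and acinar regenerating protein, stood at 8.85 and 8.82 in Spink3+/+, at 9.69 and 9.49 in Spink3-/- and at 9.88 and 9.77 in Spink3-/-XKI/+. Its arrays were tight within each group, and the difference was 0.87 (SE 0.16, adjusted p = 0.48 by limma). Reg3d stood at 4.56 and 4.57 in Spink3+/+, at 5.57 and 5.14 in Spink3-/- and at 5.28 and 5.28 in Spink3-/-XKI/+, again with little spread in wild type.

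Reg2 stood at 1.79 and 1.86 in Spink3+/+, at 2.43 and 2.85 in Spink3-/- and at 3.91 and 3.96 in Spink3-/-XKI/+. Reg3a, an antimicrobial lectin of gut and pancreas, stood at -2.99 and -1.80 in Spink3+/+, at -0.73 and -1.64 in Spink3-/- and at 0.85 and 0.72 in Spink3-/-XKI/+. Reg3g, its close relative, stood at -1.80 and -0.96 in Spink3+/+, at 0.45 and -0.67 in Spink3-/- and at 0.44 and 1.44 in Spink3-/-XKI/+. For Reg2 and Reg3a both Spink3-/-XKI/+ arrays were above both Spink3-/- arrays. The differences of Reg2, Reg3a and Reg3g from wild type were 1.46 (SE 0.45), 2.19 (SE 0.75) and 1.80 (SE 0.54), each with a limma adjusted p of 0.89. Lgals3, a galectin of macrophages and injured epithelium, stood at 2.84 and 3.08 in Spink3+/+, at 3.76 and 4.05 in Spink3-/- and at 4.34 and 4.03 in Spink3-/-XKI/+. The groups were 0.68 apart, with a difference of 1.08 (SE 0.19, adjusted p = 0.48 by limma).

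Hpx and Saa1 were the other members above, and S100a8 and S100a9 were the 2 below. Hpx, a plasma haem binder, was well above background on 3 deficient arrays and neither wild-type array. The liver list, which holds Hpx as well, had 3 of 20 tested members above (15%) and 0 below. Over all tested genes the shares were 8.13% and 6.18%. The liver list had a median of 1.23 in Spink3-/- and 0.10 in Spink3-/-XKI/+. Its summed signal was 130.4 to 147.1 in Spink3+/+ and 144.8 to 207.3 in the deficient arrays, and 4 of 4 defining liver markers were well above background on all arrays. The part of liver RNA in the acute-phase values was not tested.

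**Figure D3:**
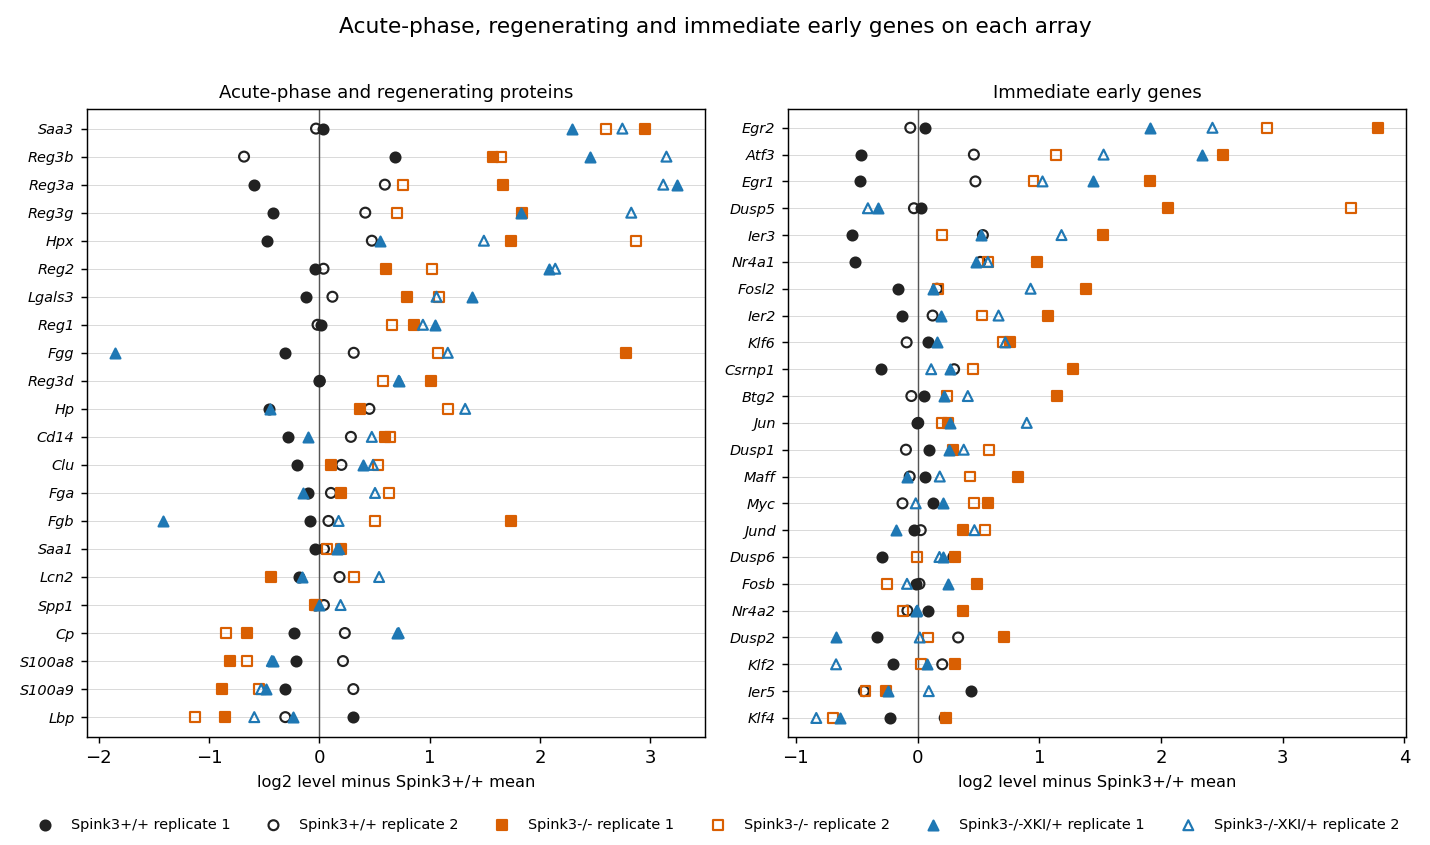
Level minus the Spink3+/+ mean (x axis, log2) on each array for every tested member of the acute-phase and regenerating list (22 genes, left) and of the immediate early list (23 genes, right). Saa3 and Egr2 are the members with the largest differences, 2.65 and 2.75.

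Of 30 immediate early genes 23 were tested, and 8 lay above (34.8%) and 0 below, against 8.13% and 6.18% of all tested genes. The median difference was 0.40, 0.63 in Spink3-/- and 0.19 in Spink3-/-XKI/+, and 0.76 within the slide row. No member passed the test. Of the tested members 2 had passed the filter through 1 group alone, Egr2 among them, which is above background on neither wild-type array. Of the 16 members well above background on all 6 arrays 5 lay above. Without Spink3+/+ replicate 2 the count above was 13, when 2981 of all 13842 tested genes lay above. Without Spink3-/-XKI/+ replicate 1 it was 12, when 1677 of all tested genes did. Leaving an array out can only add genes to such a count. The 8 genes were Egr2, Atf3, Egr1, Ier2, Klf6, Btg2, Jun and Dusp1. Fos and Junb were on the array but did not pass the filter on dim probes.

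Egr2 stood at -4.25 and -4.37 in Spink3+/+, where it was not well above background, at -0.52 and -1.44 in Spink3-/- and at -2.40 and -1.89 in Spink3-/-XKI/+. All 4 deficient arrays were well above background, and both Spink3-/- arrays were above both Spink3-/-XKI/+ arrays. The difference was 2.75 (SE 0.47, adjusted p = 0.479 by limma), and Egr2 was at least 2.00-fold higher. With normexp correction the difference was 0.73. Egr1, its better known relative, stood at -1.08 and -0.13 in Spink3+/+, at 1.31 and 0.35 in Spink3-/- and at 0.84 and 0.43 in Spink3-/-XKI/+. Atf3, a stress-induced bZIP repressor, stood at -2.83 and -1.91 in Spink3+/+, at 0.14 and -1.23 in Spink3-/- and at -0.03 and -0.84 in Spink3-/-XKI/+. The differences were 1.33 (SE 0.36) for Egr1 and 1.88 (SE 0.45) for Atf3, with limma adjusted p-values of 0.83 and 0.77. Jun, a subunit of AP-1, stood at 5.40 and 5.41 in Spink3+/+, at 5.66 and 5.60 in Spink3-/- and at 5.67 and 6.30 in Spink3-/-XKI/+, which is a narrow separation of 0.19.

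Serum response factor binds the CArG box, and Egr2 is a textbook target. Of its 5 RefSeq starts, 4 had a CArG box in the window. Some of these windows overlap and hold the same box, so they are not 4 separate sites. Shown are 2 windows with different boxes, from 120 bases to 1 base before the start, with the box in capitals (GRCm38.p6, 5' to 3').
Egr2, chr10:67537446-67537565, plus strand: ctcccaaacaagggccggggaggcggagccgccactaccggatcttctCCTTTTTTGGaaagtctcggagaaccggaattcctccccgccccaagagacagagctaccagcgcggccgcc
Egr2, chr10:67537749-67537868, plus strand: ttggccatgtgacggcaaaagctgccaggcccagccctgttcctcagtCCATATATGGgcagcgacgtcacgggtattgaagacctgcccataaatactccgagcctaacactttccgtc
The box lies at -72 to -63 in both. A CArG box was found in 1.63% of all 32851 windows and for 185 of 10560 tested genes with a promoter in the table (1.75%). It was found for 26 of 821 genes above wild type (3.17%) and for 4 of 667 genes below (0.60%). These shares describe the lists and were not tested. Of the 26 genes above, only Egr2 is on the immediate early list. Ier2 had no promoter in the table, and no motif of any kind was listed for Egr1. Whether these genes hold a CArG box is therefore not stated.

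Of the 35 lists, that of macrophage genes had the largest share of tested members above wild type. Of 28 genes 27 were tested, and 15 lay above (55.6%) and 1, Cd163, below, against 8.13% and 6.18% of all tested genes. On this list 26 of 27 differences were above 0. The median difference was 0.66, 0.51 in Spink3-/- and 0.85 in Spink3-/-XKI/+, and 0.59 within the slide row. It was 0.43 without Spink3+/+ replicate 1 and 0.39 with normexp correction. The summed signal of the list was 174.5 to 186.8 in Spink3+/+ and 218.3 to 264.0 on the deficient arrays. No member passed the test, although 14 had an unadjusted p under 0.05, and 4 had passed the background filter through 1 group alone.

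Trem2, a receptor of lipid-handling macrophages, stood at 1.16 and 0.61 in Spink3+/+, at 1.71 and 1.88 in Spink3-/- and at 3.07 and 2.25 in Spink3-/-XKI/+. Marco, a scavenger receptor, stood at 1.15 and 1.21 in Spink3+/+, at 1.84 and 2.22 in Spink3-/- and at 2.05 and 2.39 in Spink3-/-XKI/+. Cd68, a lysosomal glycoprotein of macrophages, stood at 1.17 and 1.46 in Spink3+/+, at 1.97 and 1.90 in Spink3-/- and at 2.73 and 2.12 in Spink3-/-XKI/+. In all 3 genes the groups were separated, and Spink3-/-XKI/+ replicate 1 or 2 was the highest array. Their differences were 1.35 (SE 0.39), 0.95 (SE 0.18) and 0.86 (SE 0.26), with limma adjusted p-values of 0.89, 0.58 and 0.89. Adgre1, a surface receptor that marks macrophages, stood at -1.21 and -0.66 in Spink3+/+, at 0.44 and -0.49 in Spink3-/- and at 0.57 and -0.37 in Spink3-/-XKI/+. Lyz2 and Lyz1, the lysozymes, differed by 0.95 and 0.79. Csf1r and Itgam, by contrast, differed by 0.30 and 0.22, with gaps of 0.01 and 0.10.

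Cd163, a haemoglobin scavenger receptor of macrophages, was the member below. It stood at -1.69 and -2.38 in Spink3+/+, at -2.74 and -4.31 in Spink3-/- and at -3.51 and -2.84 in Spink3-/-XKI/+. None of the deficient arrays was well above background, so Cd163 was at least 1.64-fold lower, and its measured difference of -1.32 (SE 0.46) had a limma adjusted p of 0.89. Mrc1 and C1qa, also macrophage genes, differed by 0.04 and 0.10 with overlapping groups.

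Of 18 tested chemokine and NF-kappaB pathway genes 7 lay above (38.9%) and 1 below, against 8.13% and 6.18% of all tested genes. The list has 30 genes, its median difference was 0.38, and 0.28 within the slide row. Ccl2, a chemoattractant of monocytes, stood at -1.83 and -1.25 in Spink3+/+, at 1.07 and -0.93 in Spink3-/- and at -0.89 and 0.48 in Spink3-/-XKI/+. Ccl7, its neighbour in sequence and function, stood at -4.04 and -1.93 in Spink3+/+, at -0.16 and -1.23 in Spink3-/- and at -1.68 and -0.69 in Spink3-/-XKI/+. Spink3-/- replicate 1 was the highest array for both, and the deficient arrays spread over more than 1 log2 unit. The NF-kappaB subunits were tighter. Nfkb2 stood at -0.30 and -0.29 in Spink3+/+, at 0.15 and 0.09 in Spink3-/- and at 0.37 and 0.70 in Spink3-/-XKI/+. Nfkb1 differed by 0.60 (SE 0.19), Rela by 0.21 and the inhibitor Nfkbia by 0.46. Cxcl12, a constitutive chemokine, was the member below, at -0.77 (SE 0.36), with overlapping groups on a second probe (-0.38). No member passed the test.

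**Figure D4:**
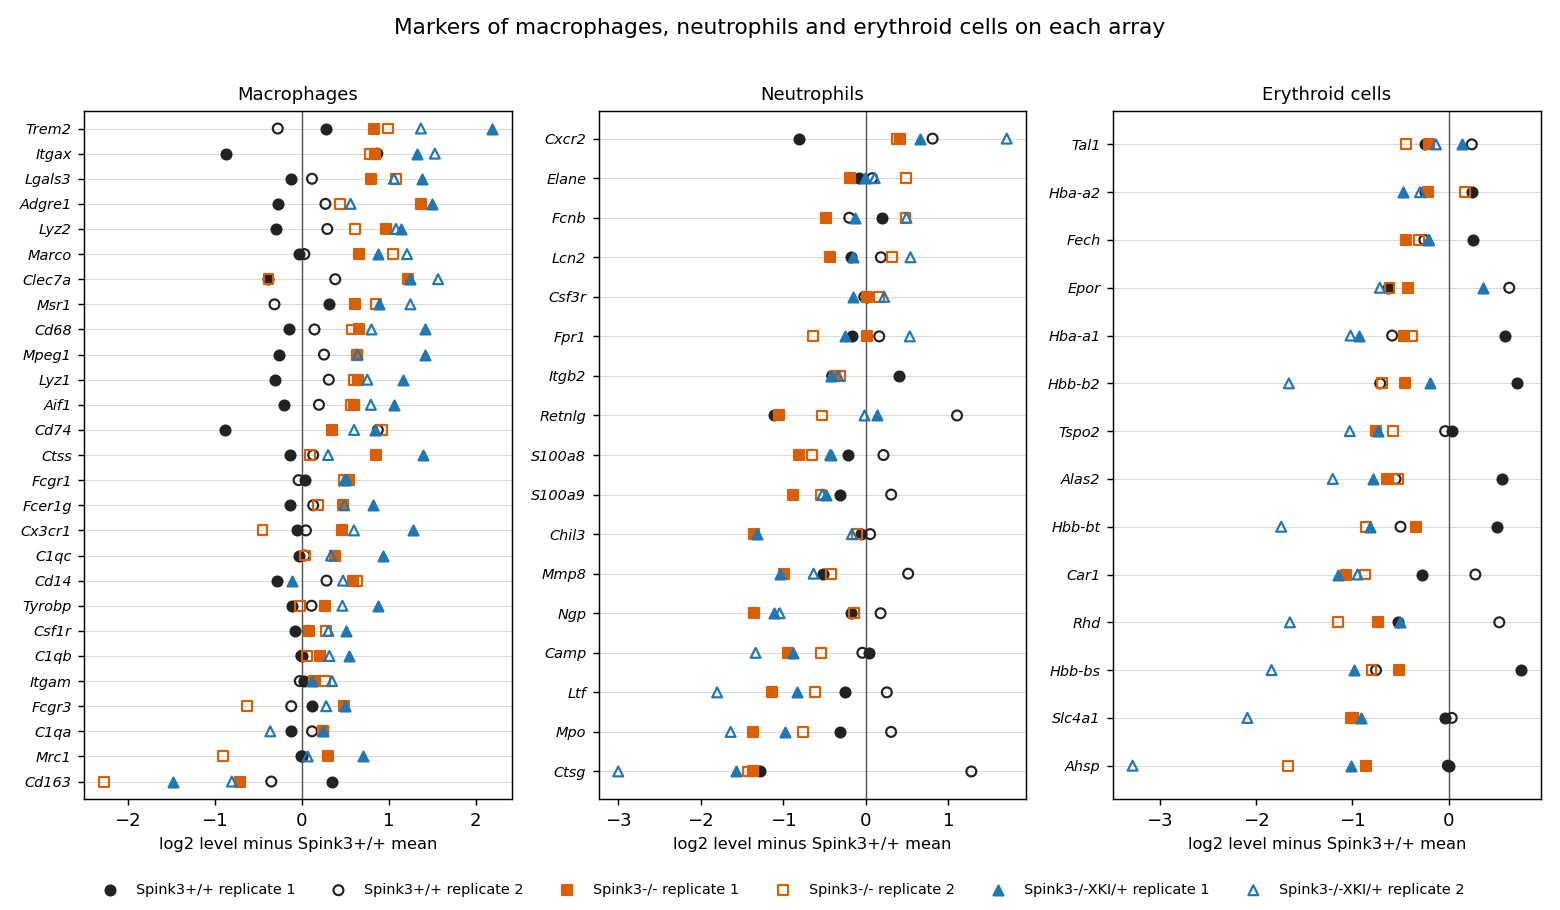
Level minus the Spink3+/+ mean (x axis, log2) on each array for tested markers of macrophages (27 genes), neutrophils (17) and erythroid cells (14 of 15). Most macrophage genes lie to the right of the Spink3+/+ arrays, whereas Mpo, Ltf, Camp, Slc4a1 and Ahsp lie to the left on all 4 deficient arrays.

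Of 20 genes of neutrophils and their precursors 17 were tested. Of these, 0 lay above and 7 below (41.2%), against 8.13% and 6.18% of all tested genes. The list's median difference was -0.58, and -0.88 within the slide row. The median was -0.30 without Spink3+/+ replicate 2, and 1 tested member had passed the filter through 1 group alone. Mpo, myeloperoxidase, stood at 1.12 and 1.73 in Spink3+/+, at 0.05 and 0.66 in Spink3-/- and at 0.45 and -0.21 in Spink3-/-XKI/+. Camp, which encodes cathelicidin, stood at 3.00 and 2.91 in Spink3+/+, at 2.02 and 2.42 in Spink3-/- and at 2.08 and 1.62 in Spink3-/-XKI/+. Both were separated, by 0.46 and 0.50, and a second Camp probe gave -1.07 beside -0.92. Ltf, lactoferrin, differed by -1.10 (SE 0.34), S100a9 by -0.61 (SE 0.22) and S100a8, its partner in calprotectin, by -0.58 (SE 0.19). Of the 17 differences 12 were below 0 and 5 above: Elane, Csf3r, Lcn2, Fcnb and Cxcr2, a chemokine receptor, differed by 0.10, 0.06, 0.07, 0.09 and 0.79 with overlapping groups. The defining marker Ly6g did not pass the filter, and its levels ran from -4.41 to -0.91 on the deficient arrays against -4.12 and -4.10 in wild type. The summed signal of the list was 422.7 to 475.0 in Spink3+/+ and 373.0 to 450.9 on the deficient arrays, ranges that overlap. No member passed the test.

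Of 24 erythroid genes 15 were tested, and 0 lay above and 5 below (33.3%), against 8.13% and 6.18% of all tested genes. All 15 differences were below 0. The median difference was -0.79, and -0.52 within the slide row. It was -0.44 without Spink3+/+ replicate 1 and -1.22 without Spink3+/+ replicate 2, when 8 and 12 members lay below. Of all 13842 tested genes, 2424 and 2186 lay below with these arrays left out. Slc4a1, the band 3 anion exchanger, stood at 2.75 and 2.82 in Spink3+/+, at 1.76 and 1.79 in Spink3-/- and at 1.87 and 0.69 in Spink3-/-XKI/+. Ahsp, the chaperone of alpha-globin, stood at 2.41 and 2.40 in Spink3+/+, at 1.55 and 0.74 in Spink3-/- and at 1.39 and -0.87 in Spink3-/-XKI/+. Spink3-/-XKI/+ replicate 2 was the lowest array for both. The differences were -1.25 (SE 0.34) and -1.70 (SE 0.64), and neither passed the test. Hba-a1, an adult alpha-globin gene, stood at 9.63 and 8.46 in Spink3+/+ and between 8.03 and 8.66 on the deficient arrays, so the groups overlapped and Spink3+/+ replicate 1 was the highest.

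Of 20 tested endothelial genes 1 lay above and 9 below (45.0%), by small amounts, against 8.13% and 6.18% of all tested genes. The median difference was -0.22, and -0.21 within the slide row. With spike-in scaling the count below was 3, when 209 of all 13842 tested genes lay below. Cdh5, the cadherin of endothelial junctions, stood at 0.56 and 0.76 in Spink3+/+, at 0.44 and -0.27 in Spink3-/- and at 0.00 and -0.41 in Spink3-/-XKI/+. Robo4, an endothelial guidance receptor, stood at 4.13 and 4.13 in Spink3+/+, at 3.94 and 3.97 in Spink3-/- and at 3.76 and 3.87 in Spink3-/-XKI/+. Kdr, the receptor for vascular endothelial growth factor, lay above with a difference of 0.46 (SE 0.21), but its second probe gave -0.31. No member passed the test.

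Several contractile genes were among those with the widest gaps above wild type, with a wide spread among the deficient arrays. Actg2, smooth muscle gamma-actin, stood at 2.52 and 2.79 in Spink3+/+, at 5.60 and 3.72 in Spink3-/- and at 4.64 and 7.41 in Spink3-/-XKI/+. Cnn1, calponin, stood at 1.02 and 1.30 in Spink3+/+, at 3.94 and 2.07 in Spink3-/- and at 3.26 and 5.21 in Spink3-/-XKI/+. Tnnt2, cardiac troponin T, stood at -2.68 and -3.17 in Spink3+/+, at 0.11 and -1.60 in Spink3-/- and at -0.11 and 1.83 in Spink3-/-XKI/+. In each, Spink3-/-XKI/+ replicate 2 was the highest and Spink3-/- replicate 2 the lowest deficient array. The differences of 2.69 (SE 0.91), 2.46 (SE 0.76) and 2.98 (SE 0.82) did not pass the test, with limma adjusted p-values of 0.893, 0.893 and 0.862. Acta2 and Tagln, contractile genes that stellate cells share with smooth muscle, showed the same order of arrays, with differences of 1.22 (SE 0.57) and 1.07 (SE 0.52). Myocd, the coactivator of serum response factor in smooth muscle, was at least 2.65-fold higher, with neither wild-type array above background.

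Of 23 striated muscle genes 9 were tested, and 4 lay above (44.4%) and 0 below, against 8.13% and 6.18% of all tested genes. Among the 9 tested, 4 had passed the filter through 1 group alone. The summed signal of the list was 4.52 to 5.56 in Spink3+/+ and 6.86 to 14.2 in the deficient arrays, and 1 of 4 defining markers was well above background on all 6 arrays. Among 30 fibroblast and stellate cell genes, all tested, 5 lay above (16.7%) and 1 below (3.33%), with a median of 0.06. Col1a1, the main fibrillar collagen, differed by 0.15. The part of neighbouring muscle in these values was not tested.

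Genes of the unfolded protein response lay in both directions around a median of 0.01. Of 34 tested members 8 lay above (23.5%) and 4 below (11.8%), against 8.13% and 6.18% of all tested genes. The 8 above were Atf3, Trib3, Ddit3, Chac1, Calr, Dnajb9, Pdia4 and Pdia3, and the 4 below were Ero1b, Atf6, Dnajc3 and Sel1l. Trib3 is a pseudokinase, Chac1 degrades glutathione, and Ddit3 is the factor CHOP. Trib3 stood at 2.33 and 1.74 in Spink3+/+, at 2.97 and 2.79 in Spink3-/- and at 3.36 and 3.20 in Spink3-/-XKI/+. The difference was 1.05 (SE 0.23, adjusted p = 0.71 by limma). Chac1 differed by 0.71 (SE 0.30) and Ddit3 by 0.73 (SE 0.27). Atf4, Asns, Sesn2 and Ppp1r15a, stress genes of the same list, differed by 0.14, -0.33, 0.17 and -0.04 with overlapping groups. Atf6, a sensor of the response, was the clearest member below. It stood at -1.11 and -1.25 in Spink3+/+, at -1.74 and -1.78 in Spink3-/- and at -1.75 and -1.71 in Spink3-/-XKI/+. Its 4 deficient arrays nearly coincided, and the difference was -0.56 (SE 0.13, adjusted p = 0.71 by limma).

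Of 42 autophagy genes 40 were tested, and 3 lay above and 3 below (7.5% each), close to the 8.13% and 6.18% of all tested genes, with a median of 0.01. Tfeb, the regulator of lysosome genes, stood at -1.35 and -1.57 in Spink3+/+, at -1.10 and -1.02 in Spink3-/- and at -1.10 and -0.87 in Spink3-/-XKI/+. Vmp1, an autophagy membrane protein, differed by 0.48 (SE 0.18), and Atg9a, a lipid scramblase of the phagophore, by -0.60 (SE 0.19). Of 38 tested lysosome genes 7 lay above (18.4%) and 3 below (7.9%), with a median of 0.08. Ctsb, the cathepsin known to activate trypsinogen, stood at 4.75 and 5.07 in Spink3+/+, at 5.16 and 5.31 in Spink3-/- and at 5.74 and 5.33 in Spink3-/-XKI/+. Its difference of 0.47 (SE 0.20) and that of Lipa, the acid lipase, of 0.51 (SE 0.17) did not pass the test. Both enzymes are abundant in macrophages too.

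Among cell death genes, 1 of 26 tested apoptosis genes lay above (3.85%) and 0 below, and 4 of 16 tested genes of necroptosis, pyroptosis and the inflammasome lay above (25.0%) and 0 below, against 8.13% and 6.18% of all tested genes. The apoptosis gene was the death receptor Fas, with a difference of 0.51 (SE 0.27). Casp4, the inflammatory caspase, stood at 0.29 and 0.56 in Spink3+/+, at 1.25 and 0.90 in Spink3-/- and at 0.76 and 0.95 in Spink3-/-XKI/+, with a second probe whose groups overlapped. Mlkl, the effector of necroptosis, differed by 0.32 (SE 0.15) and the kinase Ripk1 by 1.17 (SE 0.82), the latter with Spink3-/- replicate 2 far above the other deficient arrays. Of 19 tested p53 targets 3 lay above (15.8%), Btg2, Phlda3 and Trp53 itself, and 0 below. Of 25 tested interferon response genes 0 lay above and 0 below. Their median was -0.02 over both deficient genotypes, 0.19 in Spink3-/- and -0.27 in Spink3-/-XKI/+, and 0.38 within the slide row. No gene of these lists passed the test.

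Signalling genes near the growth factor and interleukin 6 pathways gave single members. Errfi1, a feedback inhibitor of the EGF receptor, stood at 1.83 and 1.59 in Spink3+/+, at 3.56 and 3.05 in Spink3-/- and at 2.14 and 2.37 in Spink3-/-XKI/+. Both Spink3-/- arrays were above both Spink3-/-XKI/+ arrays, and the difference from wild type was 1.08 (SE 0.39, adjusted p = 0.89 by limma). Egfr lay above with 0.43 (SE 0.19), and the groups overlapped on its second probe (0.32). Of 21 tested interleukin 6 and Stat3 genes 2 lay above and 2 below (9.52% each), close to 8.13% and 6.18% of all tested genes. Bcl6, a repressor, differed by 0.71 (SE 0.20), and Pim1, a Stat-induced kinase, by -1.20 (SE 0.42).

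Of 30 endocrine genes, all tested, 3 lay above (10%) and 1 below (3.33%), near the shares of all tested genes (8.13% and 6.18%), with a median of 0.06, and of 20 tested duct genes 0 lay above and 1 below. Nkx2-2, an islet transcription factor, lay above with 0.61 (SE 0.14), but its second probe gave -0.50, so no direction is given. For cholesterol biosynthesis 1 of 22 tested genes lay below and 0 above. The list's median was 0.07 in Spink3-/- and -0.60 in Spink3-/-XKI/+.

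In the fit with 3 genotypes, 5 genes differed between Spink3-/- and Spink3+/+, 1 between Spink3-/-XKI/+ and Spink3+/+, and 1 between the deficient genotypes (0.0361%, 0.00722% and 0.00722% of tested genes), which share arrays. The last was Ces2a, a carboxylesterase, which stood at -4.14 and -4.60 in Spink3+/+, at -0.81 and -0.81 in Spink3-/- and at -5.01 and -4.59 in Spink3-/-XKI/+. Ces2a was therefore high in 1 deficient genotype alone, and its pooled groups overlapped. Its difference, Spink3-/-XKI/+ minus Spink3-/-, was -3.99 as measured (SE 0.24, adjusted p = 0.0316 by limma). Neither Spink3-/-XKI/+ array nor either Spink3+/+ array was well above background for Ces2a, so it was at least 5.51-fold lower in Spink3-/-XKI/+ than in Spink3-/-. Of the 1126 genes above wild type, both Spink3-/-XKI/+ arrays exceeded both Spink3-/- arrays for 273 and the reverse held for 94, while 759 overlapped. Of the 856 genes below, 154 had both Spink3-/- arrays higher, 115 had both Spink3-/-XKI/+ arrays higher, and 587 overlapped. These orders were not counted over all tested genes, so no difference between the deficient genotypes is read from them.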

How the data were processed

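Total RNA of 6 whole-pancreas samples was hybridised to 1-colour Agilent arrays of 62976 spots. The deposited files hold intensities per spot: per the file headers these are background-subtracted processed signals on mm9-designed probes, and the submitters' processing notes name Feature Extraction 10.7.3.1. The authors' deposited value table held the same intensities, spot by spot, so no step between arrays had been applied. Other deposited columns used were flags (well above background, saturated, outlier) and probe positions.

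Each array's log2 signal was set relative to its 75th percentile, outlier spots were left out, and spots of a probe were averaged. A probe was kept if both arrays of 1 or more genotypes showed it well above background (24820 probes), and the brightest stood for a gene, which gave 13842 genes, 10469 of them with a single kept probe. Probes were named through RefSeq by accession (26864), symbol (3751) or older symbol (623), 1221 kept the file's name, and 23222 had none. limma 3.58.1 in R 4.3.3 fitted deficient against Spink3+/+ (4 residual degrees of freedom, two-sided, Benjamini-Hochberg over all genes), and a second fit kept 3 genotypes; tables and figures used Python 3.11.15 with pandas 2.3.3 and matplotlib 3.10.9. The fit was tested on simulated data. The number of arrays limits the precision. Promoters were matched for 10560 tested genes (RefSeq, GRCm38.p6).

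Named genes were Spink3, genes passing the test, then those with the widest gaps between groups to 15 a direction, list members whose groups did not overlap, and cell type markers; other genes are named as list members with overlapping groups or as stated. 1 named gene is not reported here. The members and lists were chosen with earlier results of these data known. The main fit did not pair the samples by replicate number. Alternatives covered background correction, scaling, probe filter, probe choice, fit, slide row and each array left out.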

Additional observations from a re-analysis of the deposited data

Results flagged for a closer look

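In 13 of 114 named genes 1 deficient array stood far from the other 3, by its gap to the nearest of them as a share of the range of all 4. Chance flags about 1 in 20 groups, and the deficient group joins 2 genotypes. The lowest array stood apart for Nsun7 (share 0.876, level -2.37 with the nearest at -1.93), Slc4a1 (0.909, 0.69 with 1.76) and S100a9 (0.834, 5.70 with 6.03). The highest array stood apart for Mefv (0.832, -0.48 with -1.27), Fas (0.856, -0.02 with -0.78), Ripk1 (0.860, 1.61 with -0.95) and Trp53 (0.846, -0.97 with -1.45). The same held for the lysosomal and autophagy genes Hexa (0.888, 3.09 with 2.68), Atp6v1b2 (0.842, -1.71 with -1.92) and Atg3 (0.915, 0.57 with -0.14). It also held for Ftl1, a ferritin chain (0.960, 9.67 with 9.31), Prdx2, a peroxiredoxin (0.855, 4.88 with 4.77), and Ttr, transthyretin (0.905, 4.33 with 4.21).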

How the results depend on the processing

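The main counts were 1 gene higher and 2 lower by limma, and 1126 above and 856 below without overlap. The count higher was 0 with the replicate block, with probes above background on all 6 arrays and with no filter on dim probes, and 3 with the slide row as a block, which were Aqp7, Gsdmc and Scrt1, named after their values were seen, and not Saa3. With normexp correction and with an intensity trend the 1 gene higher was Slc13a3. The count lower was 1 with the replicate block, with the same 2 filters and with the mean of a gene's probes. With 1 array left out the counts ran from 0 to 3 higher, 1 to 10 lower, 1333 to 2981 above and 1071 to 2424 below; the latter can only grow when an array is dropped. Spike-in scaling gave 2012 above and 209 below, with the median of all genes at 0.10, and quantile normalization 1036 and 974. Same-numbered arrays of 2 genotypes had correlated deviations of -0.06, 0.03 and 0.20, the last between the deficient genotypes. These values do not settle whether the replicate numbers pair arrays, and with the replicate block Spink3 alone stayed called.

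The log2 difference of Spink3 passed the test under every alternative run, from -7.28 to -6.79, and with each array left out. Over 114 named genes and their alternatives, 2105 of 2132 values kept direction and side of the threshold, 15 lost and 7 gained the call, and 5 reversed. Only Spink3, Saa3 and Nsun7 were called in the main fit, so most of these values merely stayed uncalled. All 15 losses were of Saa3 and Nsun7. Apart from the fits with an array left out, Saa3 was called in 7 of 12 alternatives and Nsun7 in 9 of 12. The log2 difference of Mx1 ran from -0.55 to 1.56 with 1 array left out, the log2 difference of Rsad2 was 0.54 and the log2 difference of Cpa3 0.053 with the slide row as a block, and the log2 difference of Xist was -0.040 with the mean of its probes; the cause was not tested. Keeping outlier spots, an alternative chosen after seeing the data, gave 1127 above and 857 below. Dim probes have no order below background, and normexp correction shrank their differences, to 0.73 for Egr2.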
